A study of Homo sapiens with 6 samples.

Results

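The phosphofructokinase family was examined in OVCAR8, an ovarian cancer cell line, through 6 genes listed by name: PFKP, PFKL, PFKM, PFKFB2, PFKFB3 and PFKFB4. All 6 were among the 14930 genes of the deposited RNA-Seq table. PFKP led to the choice of the family because of its very large fall in these same samples, so its values and every share or sum that contains it are described here without a test. The 3 groups held 2 replicates each. Control cells received DMSO, a second group received DZNep at 5 μM, and in the third (shEZH2) an EZH2 hairpin was induced by doxycycline at 1 μg/mL, all for 72 hours. These doses are those of the study's methods, and the sample labels give the same numbers in mM and mg/mL. DZNep is a small molecule used to deplete EZH2, the catalytic subunit of the polycomb repressive complex PRC2. According to the paper, it has been reported to inhibit histone methylation as well. Effects of DZNep through loss of EZH2 and through other routes cannot be told apart in these samples. These samples hold 1 hairpin in 1 cell line, and no library of cells given doxycycline without the EZH2 hairpin was among the 6 samples, so an effect of doxycycline itself and of EZH2 silencing cannot be told apart. The methods name both OVCAR8 cells and a line derived from them that carries the inducible hairpin, and do not say which was the control. A difference between these lines may thus also enter the shEZH2 differences and cannot be told apart.

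Phosphofructokinase-1 converts fructose 6-phosphate to fructose 1,6-bisphosphate, the committed step of glycolysis. The enzyme is built from subunits encoded by PFKM (muscle type), PFKL (liver type) and PFKP (platelet type), and many tumour cells express PFKP strongly. Fructose 2,6-bisphosphate, a strong activator of the enzyme, is made and broken down by the bifunctional enzymes of the PFKFB genes, of which PFKFB3 has high kinase activity and is induced by hypoxia and mitogens, as is PFKFB4, while PFKFB2 is the heart type enzyme regulated by phosphorylation.

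The values are whole numbers that add up to between 999956 and 1000068 in each sample, a scaled expression score and not read counts, so the depth behind a value is unknown and no counting interval was computed. EZH2 had values of 36 and 42 in control, 26 and 26 with DZNep, and 18 and 18 with shEZH2, so it was lower than control in both, by log2 differences of -0.63 (SE 0.18, adjusted p = 0.026) and -1.12 (SE 0.18, adjusted p = 0.016). Every p-value here is from limma, fitted across all tested genes. The shEZH2 replicates were closer to each other than those of the other groups, since the SD over genes of their log2 difference was 0.14, against 0.43 for control and 0.45 for DZNep. Nothing in the labels says that replicates came from separate cultures, so p-values measure the spread between these samples, which may be technical. Of 8 epithelial and serous markers, KRT7, KRT8 and KRT18 were abundant, at 350 or more in every sample. PAX8 was between 10 and 19, EPCAM between 5 and 12, and WT1 at 1 or 2. MUC16 and KRT19 were not among the genes of the deposited RNA-Seq table. KRT8 and KRT18 rose with DZNep by log2 differences of 1.77 (adjusted p = 0.00085) and 1.66 (adjusted p = 0.0013). The others did not follow: PAX8 fell (-0.68, adjusted p = 0.028) and KRT7 did not pass (-0.08, adjusted p = 0.78). EPCAM and WT1 were tested only with no filter on low values, and neither passed (-0.62, adjusted p = 0.083, and 0.24, adjusted p = 0.52). Of 4 leukocyte and endothelial markers, PTPRC and PECAM1 were not among the genes of that table, and VWF did not exceed 2. CD68 fell from 70 and 65 in control to 18 and 15 with DZNep (adjusted p = 0.00043) and 32 and 28 with shEZH2 (adjusted p = 0.021). The part of these markers in the results below was not tested.

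The 6 genes lie on 5 chromosomes in GRCh38 (GENCODE v44). PFKP spans chromosome 10 from 3066333 to 3137718 on the plus strand and PFKFB3 the same chromosome from 6144934 to 6254644. PFKL is on chromosome 21 from 44300051 to 44327376, PFKM on chromosome 12 from 48105139 to 48146404, PFKFB2 on chromosome 1 from 207034366 to 207081024 and PFKFB4 on chromosome 3 from 48517684 to 48562015, on the minus strand. Sequences before a RefSeq transcription start (GRCh38.p14) were available for 5 of the 6 members, all but PFKFB2. The stretches of PFKP, PFKL and PFKFB3 that lie outside annotated exons are shown because PFKP and PFKL were the members that fell and PFKFB3 was one of the members that rose. Capitals mark matches to GGGCGG (the GC box) and CACGTG (the E-box, which contains the hypoxia-response core ACGTG), on either strand. They are given 5′ to 3′ on the strand of the gene.
PFKP, chr10:3067720-3067969: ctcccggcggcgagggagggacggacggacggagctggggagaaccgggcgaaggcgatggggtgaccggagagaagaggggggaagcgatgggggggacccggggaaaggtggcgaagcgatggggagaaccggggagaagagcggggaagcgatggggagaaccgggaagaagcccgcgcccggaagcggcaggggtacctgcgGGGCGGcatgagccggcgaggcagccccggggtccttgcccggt
PFKL, chr21:44299803-44300050: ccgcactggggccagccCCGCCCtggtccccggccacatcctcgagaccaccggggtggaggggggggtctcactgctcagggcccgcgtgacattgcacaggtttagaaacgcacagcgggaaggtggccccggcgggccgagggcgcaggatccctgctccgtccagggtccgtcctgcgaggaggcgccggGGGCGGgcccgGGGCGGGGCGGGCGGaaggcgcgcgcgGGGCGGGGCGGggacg
PFKFB3, chr10:6202694-6202865: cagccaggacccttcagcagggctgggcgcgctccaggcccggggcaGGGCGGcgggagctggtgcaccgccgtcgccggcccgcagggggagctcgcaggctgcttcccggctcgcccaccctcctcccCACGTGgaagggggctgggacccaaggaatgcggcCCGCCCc
In the full 250 bases before the start, GGGCGG matched once for PFKP, 7 times for PFKL, 2 times for PFKFB3 and 5 times for PFKFB4, and 42.6% of 35116 windows of this length before gene starts hold it. The E-box was found in the PFKFB3 window, as in 6.34% of all windows, and in none of the windows of PFKP, PFKL, PFKM and PFKFB4. ACGTG on either strand, part of every E-box, occurs in 18.5% of all windows, and TATAAA, found in none of the 5, in 10.7%. The RefSeq starts used lie 422 bases from the canonical GENCODE start for PFKP and 3283 bases from it for PFKM, on a side not recorded, whereas those of PFKL, PFKFB3 and PFKFB4 coincide with it. The PFKP window lies inside the annotated span of the gene, which begins at 3066333, and so need not be promoter sequence. The windows of PFKM, PFKFB3 and PFKFB4 also lie inside the spans of their genes. These matches describe the letters only and were not linked to any binding data.

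PFKP was the most abundant member in control and shEZH2 cells and stood below PFKM and PFKFB3 in DZNep cells. Its values were 2969 and 2509 in control, 72 and 64 with DZNep, and 441 and 433 with shEZH2. The DZNep samples were lowest and the shEZH2 samples between. How often the 3 groups separate in this way among all genes was not counted. Such orderings of samples, here and below, are description only. The mean with DZNep was 40.3-fold lower than in control, and the mean with shEZH2 was 6.27-fold lower. On the log2 scale after rescaling between samples and addition of a pseudocount of 1, the differences were -5.38 (SE 0.21) and -2.69 (SE 0.21), the lowest and the 4th lowest of the 9671 genes that passed the filter on low values. Among all 14930 genes ranked by value within a sample, PFKP stood 23rd and 25th in control, 2241st and 2852nd with DZNep, and 229th and 232nd with shEZH2. As these values were the reason for choosing the gene, they carry no p-value. In bulk RNA, fewer cells that express a gene and less RNA per cell cannot be told apart.

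**Figure D1:**
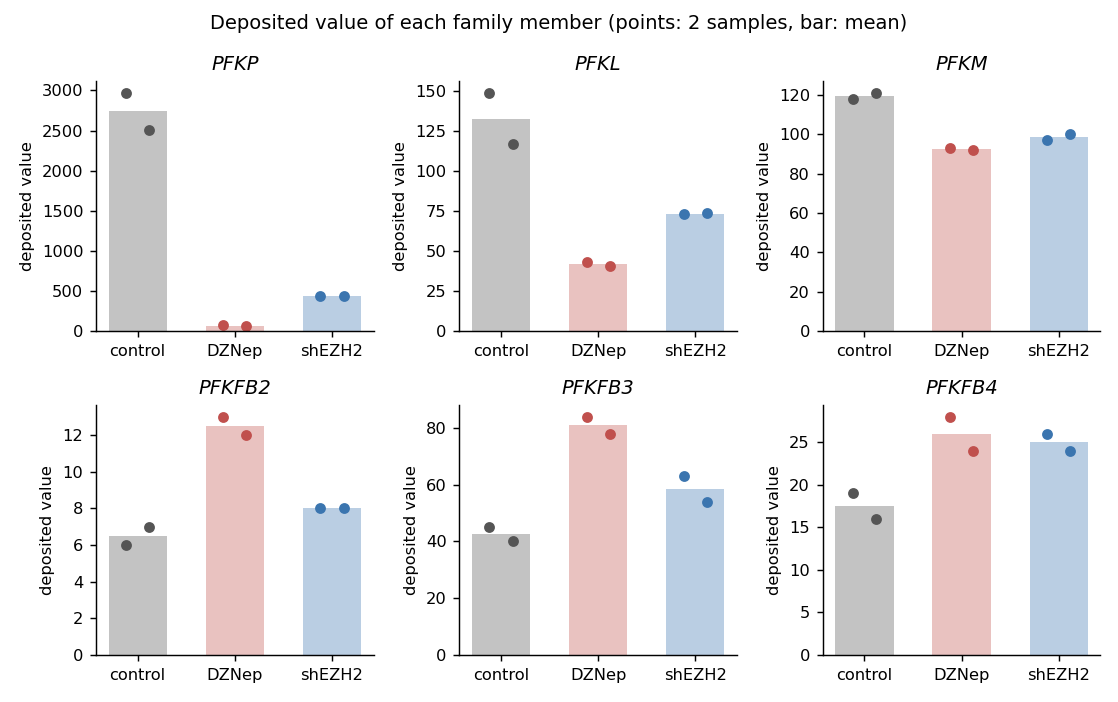
Deposited value of each member in the 6 samples, with 2 points for the samples of a group, a bar for their mean, and a vertical axis from 0 that differs between genes. PFKP and PFKL lie lowest with DZNep and between with shEZH2, PFKM has means of 119.5, 92.5 and 98.5, and PFKFB2 and PFKFB3 lie highest with DZNep.

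PFKL, the liver type subunit, had values of 149 and 117 in control, 43 and 41 with DZNep, and 73 and 74 with shEZH2. As for PFKP, the shEZH2 samples lay between. PFKL fell 3.17-fold by the ratio of means with DZNep, a log2 difference of -1.70 (SE 0.21, adjusted p = 8e-04). With shEZH2 it was 1.81-fold lower, a log2 difference of -0.89 (SE 0.21, adjusted p = 0.046). This second call was lost in several alternatives, with an adjusted p of 0.31 when the shEZH2 samples were averaged and counted as 1, 0.089 without control replicate 1, when the difference was -0.63, and 0.34 and 0.27 without shEZH2 replicate 1 or 2. The direct difference between shEZH2 and DZNep was 0.82 (SE 0.21, adjusted p = 0.053), which missed the threshold but passed it in 6 of 16 alternatives.

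PFKM, the muscle type subunit, had the smallest differences of the 3 subunit genes. It was listed at 118 and 121 in control, 93 and 92 with DZNep, and 97 and 100 with shEZH2. All 4 treated values lay below both control values, but the differences of -0.44 with DZNep (SE 0.17, adjusted p = 0.069) and -0.32 with shEZH2 (SE 0.17, adjusted p = 0.25) did not pass 0.05. The DZNep difference passed in 3 of 16 alternatives. These were the values as deposited (adjusted p = 0.044), median-ratio scaling (adjusted p = 0.049) and replicate number added to the fit as a block (adjusted p = 0.03).

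Unequal changes of the 3 subunit genes altered their shares of the summed value. PFKP made up 91.7% and 91.3% of the sum of PFKP, PFKL and PFKM in control, 34.6% and 32.5% with DZNep, and 72.2% and 71.3% with shEZH2. PFKM took 3.65% and 4.4% in control, 44.7% and 46.7% with DZNep, where it was the largest of the 3, and 15.9% and 16.5% with shEZH2. PFKL took 4.6% and 4.26% in control, 20.7% and 20.8% with DZNep, and 11.9% and 12.2% with shEZH2. The sum itself was 3236 and 2747 in control, 208 and 197 with DZNep, and 611 and 607 with shEZH2, which is 14.8-fold and 4.91-fold lower by the means. PFKP accounted for 95.8% of the fall of the sum with DZNep and 96.6% with shEZH2. Without PFKP, PFKL and PFKM together had 267 and 238 in control, 136 and 133 with DZNep, and 170 and 174 with shEZH2. Neither of the other subunit genes had a higher value in any treated sample than in any control sample. The ratio of PFKL to PFKM, which leaves PFKP out, was 1.26 and 0.967 in control, 0.462 and 0.446 with DZNep, and 0.753 and 0.74 with shEZH2.

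**Figure D2:**
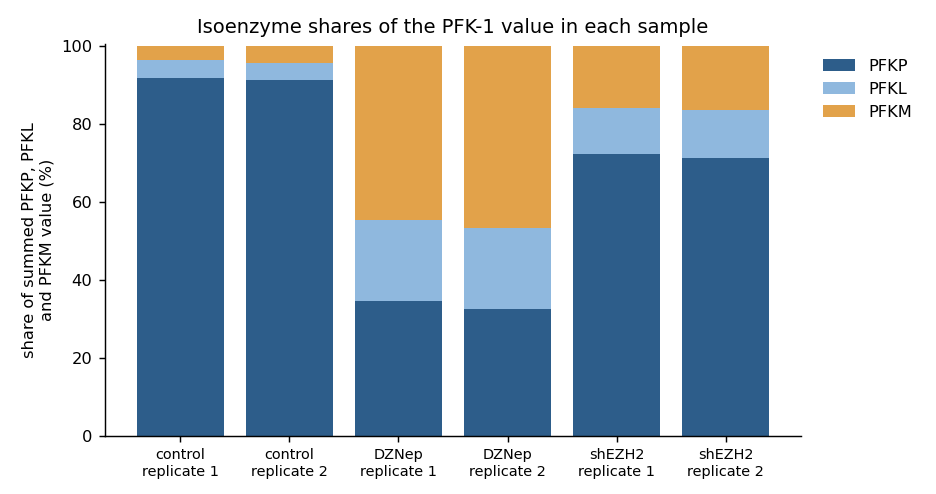
Share of PFKP, PFKL and PFKM in their summed deposited value, in percent, for each of the 6 samples as stacked bars. PFKP fills over 91% of both control bars, near 72% of the shEZH2 bars and near 34% of the DZNep bars, where PFKM is the widest segment.

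These shares compare levels between genes and so need values per transcript length. The deposit does not state this, but values fell as canonical transcript length rose across genes, with a slope of log2 value on log2 length between -0.33 and -0.15 over the samples for 93.3% of the tested genes. The canonical transcripts of PFKP, PFKL and PFKM are 2626, 2907 and 3090 bases long. If the values were not yet divided by length, the PFKP share would be 92.5% in control, 36.8% with DZNep and 74.4% with shEZH2, in the same order of groups. Paralogous sequence bears on the assignment of reads, since 96 of the 2596 stretches of 31 bases in the PFKP transcript (3.7%) also occur in transcripts of other genes, namely PFKL and an unnamed gene. In PFKL, 5 of 2877 such stretches (0.174%) are shared, with PFKP, and in PFKM none of 3060.

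Of the bifunctional genes, PFKFB3 and PFKFB2 rose with DZNep, and PFKFB4 did not pass the test. PFKFB3 had values of 45 and 40 in control, 84 and 78 with DZNep, and 63 and 54 with shEZH2. The control samples were lowest and the DZNep samples highest. PFKFB3 rose 1.91-fold by the ratio of means with DZNep, a log2 difference of 0.85 (SE 0.20, adjusted p = 0.012). The adjusted p became 0.052 without control replicate 2 and 0.054 without DZNep replicate 1, with differences of 0.68 and 0.67. With shEZH2 the difference was 0.40 (SE 0.20, adjusted p = 0.23), and the direct difference of shEZH2 from DZNep was -0.44 (SE 0.20, adjusted p = 0.2). PFKP had been 66 and 62.7 times PFKFB3 in control samples, and it was 0.857 and 0.821 times PFKFB3 with DZNep and 7 and 8.02 times with shEZH2.

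PFKFB2, the heart type enzyme, was the lowest member, at 6 and 7 in control, 13 and 12 with DZNep, and 8 and 8 with shEZH2. It reached the minimum value of 10 only in the DZNep samples and entered the test through them, and at this level rounding to whole numbers leaves the ratio of DZNep to control means anywhere between 1.71 and 2.17. It rose with DZNep by 0.79 on the log2 scale (SE 0.20, adjusted p = 0.017, or 0.022 without the filter on low values). Averaging the shEZH2 samples into 1 gave an adjusted p of 0.053, and leaving out shEZH2 replicate 1 or 2 gave 0.055 or 0.054. With shEZH2 the difference was 0.22 (SE 0.20, adjusted p = 0.51).

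PFKFB4, the testis type enzyme, was listed at 19 and 16 in control, 28 and 24 with DZNep, and 26 and 24 with shEZH2. Both treated groups lay above control and overlapped each other. Its differences were 0.48 with DZNep (SE 0.23, adjusted p = 0.13) and 0.45 with shEZH2 (SE 0.23, adjusted p = 0.24), neither past the threshold. The first passed when replicate number was added to the fit as a block (adjusted p = 0.044), and was 0.70 without DZNep replicate 2. Together the 3 bifunctional genes summed to 70 and 63 in control, 125 and 114 with DZNep, and 97 and 86 with shEZH2. Their proportions were alike in all samples: PFKFB3 made up between 62.8% and 68.4% of this sum, PFKFB4 between 21.1% and 27.9%, and PFKFB2 between 8.25% and 11.1%. The sum was 2.16% and 2.29% of the PFK-1 sum in control, 60.1% and 57.9% with DZNep, and 15.9% and 14.2% with shEZH2. PFKFB1, the remaining gene of this family, was not analysed here.

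**Figure D3:**
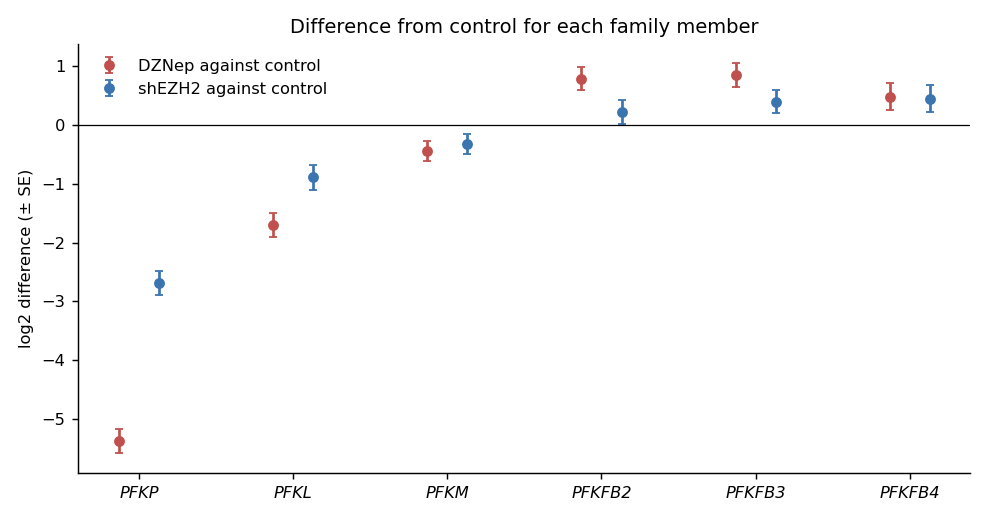
Log2 difference from control for each member, with DZNep in red and shEZH2 in blue, as points with standard errors from the limma fit of 2 replicates per group. The 3 PFK-1 genes lie below 0 and the 3 PFKFB genes above 0 in both comparisons, and PFKP lies at -5.38 and -2.69.

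Of the 5 members other than PFKP, 1 fell (PFKL) and 2 rose (PFKFB2 and PFKFB3) with DZNep at an adjusted p under 0.05. Of all tested genes 20.4% were lower and 22.4% higher by that rule, so these counts are not set apart from that background. PFKFB2 reached the minimum value only in the DZNep samples and entered the count through them. Without DZNep replicate 1, PFKFB2 no longer reached the minimum value and was not tested, and of the other 4 only PFKL passed the threshold in this comparison. With shEZH2, 1 of 5 fell (PFKL) and none rose, against 4.53% and 3.9% of all tested genes, while 1 of 5 had an unadjusted p under 0.05. In the direct comparison of shEZH2 with DZNep, limma called 0 of 5 at an adjusted p under 0.05, against 9.3% of all tested genes in either direction. By an unadjusted p under 0.05 it called 2 of 5, PFKL and PFKFB2. The share of all tested genes with an unadjusted p under 0.05 was not counted. The unadjusted counts are therefore not read as results about the members. The median log2 difference of all tested genes was 0.02 with DZNep and -0.01 with shEZH2. The comparisons with control share the same control samples, so their signs are not independent of each other.

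The question of whether the fall of PFKP was shared along glycolysis was addressed with 16 genes for the steps before and after it. Of these, 15 were tested, 3 rose and none fell with DZNep, with a median log2 difference of 0.18, and 1 rose and none fell with shEZH2, with a median of 0.08. Over all tested genes 22.4% were higher and 20.4% lower with DZNep, and 3.9% and 4.53% with shEZH2, so 3 of 15 higher is near the background. SLC2A3, the glucose transporter GLUT3, rose with both, from 51 and 52 in control to 135 and 146 with DZNep (log2 difference 1.36, SE 0.16, adjusted p = 0.00059) and to 88 and 83 with shEZH2 (0.67, SE 0.16, adjusted p = 0.043). The shEZH2 call was lost with no filter on low values, with no trend, with the shEZH2 samples averaged, and without control replicate 2 or either shEZH2 replicate. Without DZNep replicate 1, only 1 gene of the list was higher with DZNep. TPI1, triosephosphate isomerase, rose with DZNep from 1232 and 973 to 2096 and 1734 (log2 difference 0.73, adjusted p = 0.04). HK2, a hexokinase, had 6 and 6 in control, 11 and 13 with DZNep and 7 and 7 with shEZH2, and reached the minimum value only with DZNep (log2 difference 0.82, adjusted p = 0.01, and 0.013 with no filter).

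Several abundant genes of the pathway did not pass the test. GAPDH was between 6056 and 7782, ENO1 between 3087 and 4292 and ALDOA, the aldolase that acts on the product of phosphofructokinase, between 565 and 848 over the 6 samples. None of the 3 passed an adjusted p of 0.05 in any comparison, with the DZNep differences at -0.17, 0.17 and -0.28. In the direct comparison, SLC2A3 and ENO2 were lower with shEZH2 than with DZNep, by log2 differences of -0.69 (adjusted p = 0.038) and -0.93 (adjusted p = 0.042), and neither call held with no filter on low values or without DZNep replicate 1 or either shEZH2 replicate. The lowest DZNep difference in the list was -0.48, for LDHB.

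**Figure D4:**
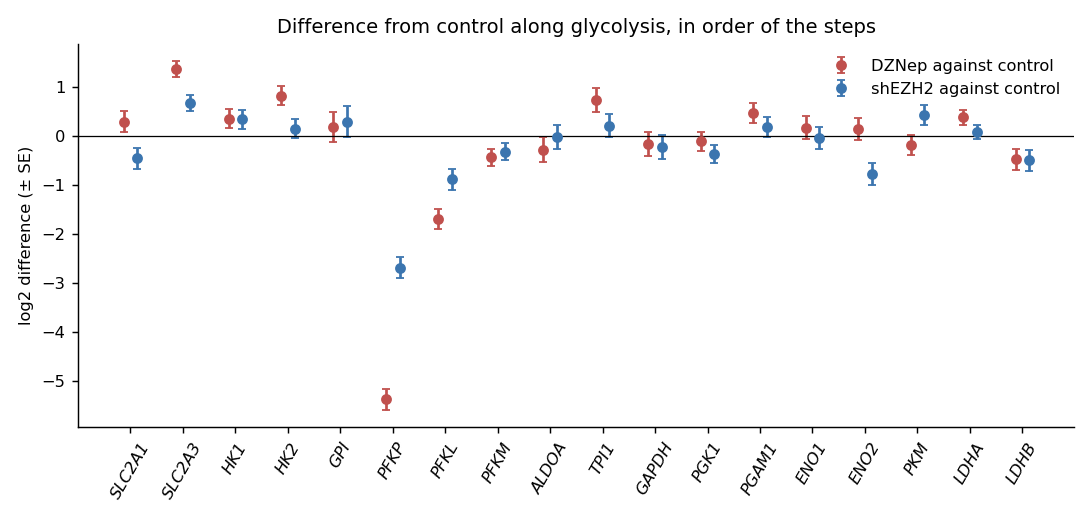
Log2 difference from control, with standard errors, for tested glycolysis genes in the order of the steps, DZNep in red and shEZH2 in blue. PFKP and PFKL stand below all other genes with DZNep, whereas the 15 tested genes of the list lie between -0.48 and 1.36.

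Enzymes that share fructose 6-phosphate or the fructose bisphosphates with the family were followed in a list of 12, of which 8 were tested. With DZNep 3 fell and none rose (median -0.45), and with shEZH2 1 fell and none rose (median -0.11), beside 20.4% lower and 22.4% higher with DZNep and 4.53% and 3.9% with shEZH2 among all tested genes. GFPT1 and GFPT2, which divert fructose 6-phosphate to hexosamine synthesis, both fell with DZNep. GFPT1 went from 85 and 120 in control to 34 and 58 with DZNep (log2 difference -1.24, SE 0.22, adjusted p = 0.0032) and was 93 and 88 with shEZH2, which was above DZNep in the direct comparison (1.03, SE 0.22, adjusted p = 0.028). GFPT2 fell with both, from 31 and 31 to 15 and 15 with DZNep (-1.07, adjusted p = 0.0059) and to 14 and 10 with shEZH2 (-1.36, adjusted p = 0.015). TKT, transketolase, which returns pentose carbon to fructose 6-phosphate, fell with DZNep from 709 and 553 to 329 and 289 (-1.09, SE 0.22, adjusted p = 0.0064) and was 559 and 549 with shEZH2. GPI, which makes fructose 6-phosphate, was listed at 62 and 42 in control, 74 and 50 with DZNep, and 66 and 64 with shEZH2, with overlapping groups (0.18, adjusted p = 0.67, and 0.29, adjusted p = 0.57). TIGAR, which breaks down fructose 2,6-bisphosphate, was listed between 9 and 18 and had a DZNep difference of 0.40 that did not pass (adjusted p = 0.17). ALDOC stayed at 1 or 2, and FBP1, the enzyme of the reverse step, was not among the genes of the deposited RNA-Seq table.

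Factors known to act on members of the family were followed in a list of 15, of which 13 were tested. With DZNep 3 rose and 4 fell (median -0.20), and with shEZH2 1 rose and 1 fell (median -0.21). Among all tested genes 22.4% were higher and 20.4% lower with DZNep, and 3.9% and 4.53% with shEZH2, so the DZNep counts lie near the background. With no filter on low values, all 15 were tested, and 5 (33.3%) were higher and 4 (26.7%) lower with DZNep. In that fit 18.3% of all 14930 genes were higher and 17.2% lower. The shEZH2 median of the list was then 0.10, beside -0.03 for all genes. EGFR, whose signalling is known to modify PFKP protein, fell from 83 and 107 in control to 21 and 17 with DZNep (log2 difference -2.33, SE 0.22, adjusted p = 0.00026) and to 38 and 32 with shEZH2 (-1.46, SE 0.22, adjusted p = 0.014). MYC, a transcription factor that activates glycolytic genes, rose from 73 and 69 to 201 and 207 with DZNep (1.44, SE 0.17, adjusted p = 6e-04) and to 136 and 139 with shEZH2 (0.90, SE 0.17, adjusted p = 0.023). HIF1A, the hypoxia factor that induces PFKFB3 and PFKFB4, was at 96 and 175 in control, 80 and 142 with DZNep, and 113 and 97 with shEZH2, with both differences at -0.35 (adjusted p = 0.33 and 0.43). Its partner ARNT fell with DZNep by 0.60 on the log2 scale (adjusted p = 0.029). FZR1, an activator of the ubiquitin ligase that removes PFKFB3 protein, fell with DZNep from 84 and 77 to 53 and 39 (-0.88, adjusted p = 0.021). TRIM21, a ubiquitin ligase for phosphofructokinase, rose with DZNep from 7 and 6 to 17 and 16 (1.16, adjusted p = 0.0055). PRKAA2, a catalytic subunit of AMPK, which phosphorylates PFKFB enzymes, fell with DZNep from 11 and 19 to 6 and 7 (-1.11, adjusted p = 0.0073), while PRKAA1 did not pass. KLF4 reached the minimum value only with DZNep, at 15 and 17 against 5 and 6 in control, and entered the test through that group (log2 difference 1.33, adjusted p = 0.0013, or 0.0021 without the filter).

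The nearest measured gene on each side of PFKP was higher, not lower, with DZNep, as were 22.4% of all tested genes at an adjusted p under 0.05. A cause shared along the region was not tested. PITRM1, a mitochondrial protease gene, lies on the opposite strand with its 3′ end 9 bases from that of PFKP, and had values of 69 and 66 in control, 128 and 135 with DZNep, and 85 and 80 with shEZH2. It rose with DZNep by a log2 difference of 0.88 (SE 0.17, adjusted p = 0.0045) and had 0.24 with shEZH2 (adjusted p = 0.39). WDR37, the nearest gene of the table on the other side at 1905341 bases, also rose with DZNep, from 19 and 18 to 33 and 36 (0.79, SE 0.19, adjusted p = 0.011). Around PFKL, ICOSLG was at 0 or 1 and TRPM2 between 13 and 18, with a DZNep difference of 0.28 (adjusted p = 0.3). SENP1 overlaps PFKM on the opposite strand and was between 13 and 23, and YOD1 overlaps PFKFB2 on the opposite strand and was between 7 and 18. The libraries were stranded, but whether the counting used strand is not given in the sources used here, so reads of these overlapping pairs, and of PFKP and PITRM1 where their ends meet, may not be separable. COL7A1 beside PFKFB4 and RBM17 beside PFKFB3 had DZNep differences of 0.57 (adjusted p = 0.065) and 0.42 (adjusted p = 0.077).

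The hairpin target was compared with the members because PFKP was low in shEZH2 cells. The sense strand of the 21-base EZH2 target, from the study's oligo list, is shown here.
EZH2 hairpin target: ccaacacaagtcatcccatta
Among GENCODE v44 transcripts it matched exactly in 1 gene, EZH2. The longest run of it found in a canonical member transcript was 7 bases in PFKP, PFKFB3 and PFKFB4, 8 in PFKFB2, and 9 in PFKL and PFKM. Other transcripts of the members were not searched for such runs. Whether the hairpin acts on any of these genes through a partial match was not tested.

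The genes whose pattern over the 6 samples lay closest to that of PFKP were GAS6, IDH2, RHPN1, FADS2 and GPC1. Likeness was the root mean square difference between log2 values centred on the control mean, among 3332 genes whose mean value reached 50. It was 0.17 for GAS6, 0.63 for IDH2, 0.83 for RHPN1, 0.84 for FADS2 and 1.11 for GPC1. GAS6 had values of 392 and 316 in control, 8 and 9 with DZNep, and 66 and 63 with shEZH2. GPC1, the 5th, had 130 and 94, 10 and 6, and 37 and 31. No other member of the family was among these 5, and since the 5 were chosen by these values, they carry no test.

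**Figure D5:**
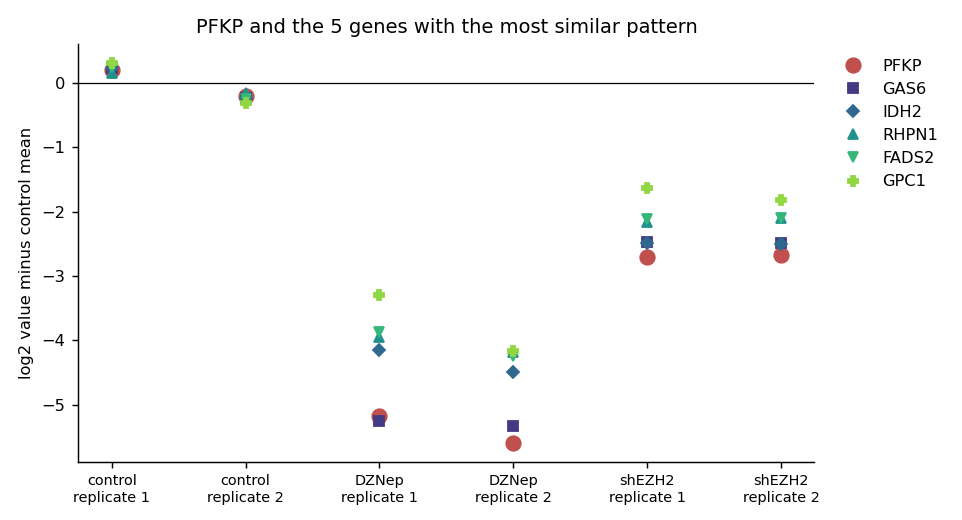
Log2 value minus the control mean in each of the 6 samples for PFKP (large red circles) and the 5 genes with the most similar pattern. GAS6 lies closest to PFKP, at a root mean square difference of 0.17, and the other 4 lie less far below control with DZNep.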

How the data were processed

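Groups and replicate numbers of the 6 OVCAR8 samples came from the sample titles. Per the methods and labels, ribosomal RNA was removed, libraries were stranded, and fastp, STAR (GRCh38) and RSEM were used by the authors. The deposited values are a score per gene and sample, scaled to a common total (999956 to 1000068) and rounded, although the table is called a count matrix. How they were scaled and how many reads they rest on is not given in the sources used here. The count model of the methods could not be used on them, so limma 3.58.1 (R 4.3.3) was applied to log2(value + 1) after unweighted TMM scaling (trimming 30% of log ratios and 5% of means, factors 0.92 to 1.12). All 6 samples entered 1 fit of group means with an intensity trend, over 9671 genes that reached 10 in 2 samples or more. Fold changes on this scale understate those of low genes. P-values are two-sided, Benjamini-Hochberg adjusted over all tested genes, and called under 0.05. The fit was tested on simulated scores. The rule of the methods (absolute log2 fold change over 1, unadjusted P under 0.05) was an alternative, beside other scalings, pseudocounts and filters, no trend, only the groups compared, a replicate block, averaged shEZH2 samples and each sample left out. The members and the lists (16 glycolysis, 12 fructose 6-phosphate and 15 regulator genes) were chosen with earlier results of these data known. Named were the members, EZH2, markers, listed genes past the threshold against control, GPI, ALDOA, ALDOC, TIGAR, FBP1 and GFPT1, measured neighbours, and the 5 genes closest to PFKP in pattern. GAPDH, ENO1, ENO2, LDHB, HIF1A and PRKAA1 were named after their values were seen. Positions and lengths came from GENCODE v44, sequences before transcription starts from RefSeq. Plots used matplotlib 3.10.9 (Python 3.11.15).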

Additional observations from a re-analysis of the deposited data

How the results depend on the processing

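The log2 difference of PFKP kept its direction in every alternative, between -5.59 and -5.18 with DZNep, -2.89 and -2.49 with shEZH2, and 2.52 and 2.90 for shEZH2 against DZNep when 1 sample was left out. PFKL passed the threshold with DZNep in 16 of 16 alternatives. The labels do not say that a replicate number marks a shared culture or day. Same-numbered control and DZNep samples deviated together, with a correlation of 0.79, whereas those of shEZH2 did not deviate with control (-0.02) or DZNep (-0.04), so the numbers were not taken as pairs over the 3 groups. With the replicate block, 5 of the 5 members other than PFKP passed with DZNep in place of 3, the added ones being PFKM (adjusted p = 0.03) and PFKFB4 (adjusted p = 0.044), and 1 glycolysis gene was lower in place of 0, 2 glycolysis genes were lower with shEZH2 in place of 0, and for shEZH2 against DZNep 1 member passed in place of 0, with 1 glycolysis gene higher in place of 0 and 5 lower in place of 2. For these counts and those that follow, the share of all tested genes called in the same fit is not given. They are therefore not read as results about the family or the pathway. By the call rule of the methods, 1 member and 1 higher glycolysis gene were called with DZNep, and 0 and 0 with shEZH2, with 0 lower for shEZH2 against DZNep. With the values as deposited, 5 glycolysis genes were higher with DZNep and 1 was lower with shEZH2, and for shEZH2 against DZNep 1 member passed, 1 glycolysis gene was higher and 4 were lower. Only the groups compared gave 1 lower with shEZH2, and the same 1, 1 and 4 in number for shEZH2 against DZNep, where median-ratio scaling gave 1 member. With no filter, no trend or averaged shEZH2 samples, 0 members and 0 higher glycolysis genes were called with shEZH2, and with no filter or averaging 0 were lower against DZNep. Leaving out 1 sample gave 1 to 3 members (PFKFB2 was not tested without either DZNep sample), 1 to 3 higher and 0 to 1 lower glycolysis genes with DZNep, 0 to 1 of each with shEZH2, and 0 to 1, 0 to 1 and 0 to 4 for shEZH2 against DZNep. The PFKFB4 difference between shEZH2 and DZNep turned from -0.03 to 0.20 without DZNep replicate 1, in a range of -0.22 to 0.20. Dividing by transcript length moved the PFKP share to 92.5% in control, 36.8% with DZNep and 74.4% with shEZH2, with leave-one-out ranges of 91.3 to 91.7, 32.5 to 34.6 and 71.3 to 72.2. The summed PFK-1 value of shEZH2 was 605 with TMM scaling and 643 per length, against 609, with 607 to 611 when 1 sample was left out. The causes of these shifts were not tested. Depth is unknown, so what it limits could not be assessed, and 2 samples per group and rounding limit the low members most.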
